A study of Mus musculus with 6 samples.

Results

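Endothelial cells line the inside of every blood and lymph vessel, and 42 genes that mark these cells or their vessel types were followed here in tumors of the mouse lung. The members were chosen by name, as capillary, large vessel, lymphatic and pan-endothelial genes, with earlier results of these data known. Each was found in exactly 1 row of the 31130 genes counted. Tumor tissue was compared between the LC group (3 mice), which carried a lung tumor only, and the IP + LC group (3 mice), in which the tumor grew in a lung injured by bleomycin. All mice had the genotype WT in the labels. The study's methods list female mice of 6 to 8 weeks, of C57BL/6 and another strain. The study put Lewis lung carcinoma cells, the line used here, into C57BL/6 mice. Bleomycin, a drug whose inhalation leads to lung fibrosis, was given to the IP + LC mice by oropharyngeal aspiration at 2.0 mg/kg body weight, and the LC mice did not receive it. In both groups, Lewis lung carcinoma cells, a mouse lung cancer line that carried green fluorescent protein, were placed in the left lung by injection on day 14, and the tumor was removed on day 21. The model is limited to 1 grafted tumor line and 1 day, and tumor and host cells were not separated before the RNA was extracted. The comparison addresses how interstitial pneumonia changes the tumor, and here how much of the vessel wall's RNA the tumor samples held.

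The vessel lining is not uniform. In the lung, most endothelial cells belong to the capillaries around the air spaces, in which aerocytes spread over the gas exchange surface and general capillary cells maintain and renew the network, while arteries, veins and lymph vessels have their own genes. Endothelial cells hold their identity through transcription factors of the ETS, SOX and KLF families, keep the wall tight through junction proteins such as VE-cadherin and claudin 5, and are kept quiescent by the angiopoietin receptor TEK. Several of these genes are also used by other cells, since *Cd36*, *Lyve1* and *Thbd* are expressed by macrophages, *Fli1* and *S1pr1* by leukocytes, *Cd34* by fibroblasts and blood progenitors, and *Cav1* and *Cav2* by type 1 alveolar cells.

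The libraries counted unique molecular identifiers (UMIs), each of which stands for 1 captured transcript. The LC libraries held 592733, 1379759 and 1356381 UMIs and the IP + LC libraries 1344042, 1631066 and 1336919, in the order of the replicates. Levels are given as CPM, the UMIs per 1000000 UMIs of tested genes after scaling by the TMM method. A level of 3 UMIs, taken as the limit of detection, was 5.17 CPM in LC replicate 1 and 1.75 to 2.54 CPM in the other libraries. LC replicate 1 stood apart. Across genes, which are not independent replicates, its Pearson's r to LC replicates 2 and 3 was 0.820 and 0.777, which was within or near the 0.773 to 0.801 between it and the IP + LC tumors, whereas r between LC replicates 2 and 3 was 0.957 and between IP + LC tumors 0.962 to 0.969. The spread between replicates, as a coefficient of variation, was 33.2% in the LC group, 13.7% in that group without replicate 1 and 10.9% in the IP + LC group. Values without this tumor are therefore given beside several results, and the plot of log2 fold changes shows them for every tested endothelial gene. The labels give lung cancer cells as the cell type, yet *Pecam1* and *Cdh5*, defining endothelial genes, were counted in all 6 libraries, as were the markers of normal lung epithelium, so the samples are described as tumor tissue. The lymphatic regulator *Prox1* was at 0, 5 and 7 UMIs in the LC and at 0, 9 and 9 in the IP + LC tumors, so that lymphatic endothelium was barely represented by its defining gene.

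Almost every member with enough UMIs for a test was lower in the tumors that grew in bleomycin-injured lungs. Of the 42 members, 40 passed the filter on low counts. By the quasi-likelihood test of edgeR, with p-values adjusted after Benjamini and Hochberg and a limit of 0.1, 36 of these 40 were lower and 1 was higher in the IP + LC group, against 19.6% lower and 16.8% higher among all 11240 genes tested. The members' median log2 fold change was -1.68, beside 0.02 over all tested genes, and the members ranged from -3.21 for *Tmem100* to 1.89 for *Procr*. A decrease of at least 2-fold was called for 34 members, where the background was 13.5%, and of at least 4-fold for 12, where it was 3.74%. In 32 members, every IP + LC tumor was below every LC tumor, which held for 21.5% of all tested genes, and in 1 member every IP + LC tumor was above, which held for 21.6%. Together, the members made up 0.640%, 1.02% and 0.920% of all UMIs in the LC tumors and 0.269%, 0.220% and 0.281% in the IP + LC tumors. LC replicate 1 was the lowest LC tumor, but remained above the IP + LC tumors in this share. In bulk tissue, fewer endothelial cells and less of these RNAs per cell cannot be told apart. Members with a missing test were *Nos3*, the endothelial nitric oxide synthase, at 3, 6 and 1 UMIs against 4, 4 and 1, and *Prox1*.

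**Figure D1:**
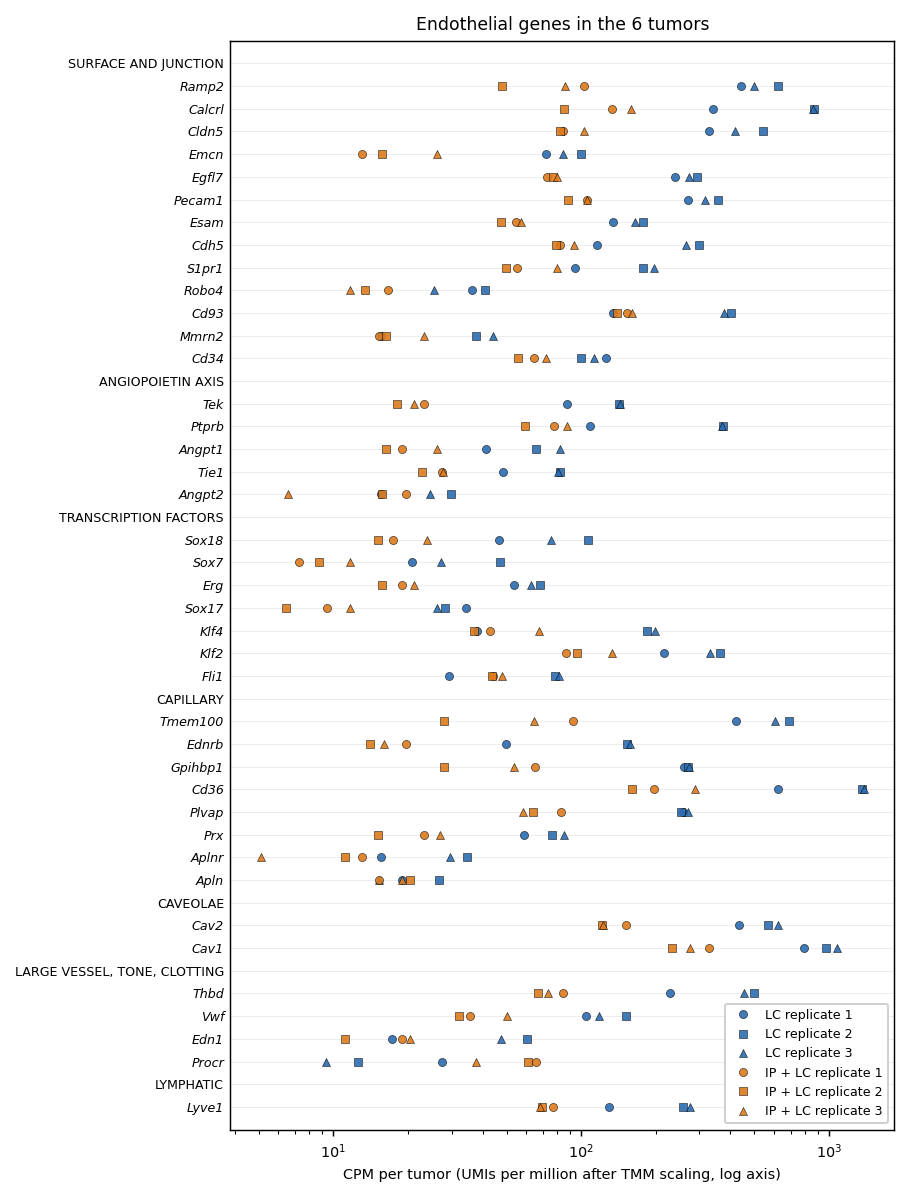
CPM of the 40 tested endothelial genes in each tumor on a log axis, grouped by role, with LC tumors in blue, IP + LC tumors in orange and 1 symbol per replicate. In 32 genes the orange symbols all lie to the left of the blue ones, *Procr* shows the opposite order, and LC replicate 1 (blue circle) is the lowest LC tumor in 34 of the 40.

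Because the SOX, ETS and KLF families govern endothelial genes, the stretch before the start site of members was searched for short sequences that these factors are known to bind. The letters searched on both strands were AGGAAG or CGGAAG for ETS, ACAAAG or ACAAT for SOX and CACCC for KLF, over 250 bases before each start in the RefSeq promoters of build GRCm38.p6, which held 26 start sites of 20 members. The ETS letters were present in 38.5% of the members' windows against 46.5% of the windows of tested genes and 39.2% of all promoters, and the KLF letters in 50% against 57.4% and 52%. The SOX letters were present in 42.3% of the members' windows, against 27.9% for tested genes and 38.8% for all promoters. The 150 bases before the start are shown for 3 genes that fell by over 4-fold (*Tek*, *Ednrb* and *Cldn5*) and for *Apln*, which was not called, 5′ to 3′ on the gene's strand, with matches to the searched letters in capitals. None of these runs holds an annotated exon. The *Ednrb* run lies inside the longer gene model of GENCODE, in an intron, because that model also has a start farther upstream.
Tek, chr4:94739139-94739288, plus strand: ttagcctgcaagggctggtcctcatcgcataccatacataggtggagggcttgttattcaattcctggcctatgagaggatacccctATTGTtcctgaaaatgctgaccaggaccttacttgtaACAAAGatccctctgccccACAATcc
Ednrb, chr14:103843702-103843851, minus strand: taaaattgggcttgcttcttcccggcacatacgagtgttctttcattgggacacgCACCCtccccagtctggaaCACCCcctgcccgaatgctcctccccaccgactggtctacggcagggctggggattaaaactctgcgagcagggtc
Cldn5, chr16:18776697-18776846, plus strand: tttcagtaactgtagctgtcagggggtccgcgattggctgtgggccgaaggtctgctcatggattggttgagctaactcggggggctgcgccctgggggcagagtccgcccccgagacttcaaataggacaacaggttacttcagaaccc
Apln, chrX:48034854-48035003, minus strand: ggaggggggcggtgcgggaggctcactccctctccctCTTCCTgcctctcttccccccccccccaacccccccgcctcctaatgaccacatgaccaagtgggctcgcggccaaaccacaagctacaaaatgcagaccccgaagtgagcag
The *Tek* run held 3 matches to the SOX letters, the *Ednrb* run 2 to the KLF letters and the *Apln* run 1 to the ETS letters, while the *Cldn5* run held none and its 2 KLF matches lay farther upstream. A match is a run of letters and not a measured binding site, and genes that fell and the gene that was not called both had matches.

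Among the 13 pan-endothelial surface and junction genes, all 13 were called lower, with a median log2 fold change of -1.59, and their summed level was 2347 to 4022 CPM in the LC and 797 to 1059 CPM in the IP + LC tumors. *Pecam1*, the adhesion molecule CD31 (chromosome 11, 106654217 to 106750628, minus strand), was at 270.4, 358 and 315 CPM in the LC tumors and at 106, 88.1 and 106 CPM in the IP + LC tumors. It was 3.15-fold lower (log2 fold change -1.66, SE 0.21, edgeR adjusted p = 0.00134), and the groups did not overlap. *Cdh5*, which encodes VE-cadherin, was at 115, 300.1 and 265 CPM against 81.9, 79.4 and 93.7 CPM. Its LC replicate 1 lay nearest to the IP + LC tumors, and the log2 fold change of -1.43 (SE 0.33, edgeR adjusted p = 0.0133) was -1.73 without that tumor. *Cldn5*, the claudin of endothelial tight junctions (chromosome 16, 18776847 to 18778262, plus strand), was at 329, 542 and 418 CPM against 84.1, 82.3 and 103 CPM. This was a 4.79-fold decrease (log2 fold change -2.26, SE 0.25, edgeR adjusted p = 0.000909), with a wide gap between the groups. *Esam*, another adhesion molecule of the junctions, had a log2 fold change of -1.59, and the neighbouring *Robo4*, a receptor that stabilizes the vessel wall, had -1.28, both without overlap. Their loci lie 112963 bases apart on chromosome 9.

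The decreases in this group were largest for the receptor pair of adrenomedullin, a peptide that keeps the vessel wall tight. *Ramp2*, its coreceptor, was at 441, 620.5 and 500.0 CPM in the LC tumors and at 102, 47.9 and 86.4 CPM in the IP + LC tumors. The level was 6.62-fold lower (log2 fold change -2.73, SE 0.31, edgeR adjusted p = 0.000993), and the IP + LC tumor with the highest level was far below every LC tumor. *Calcrl*, the receptor that RAMP2 carries to the cell surface, was at 339, 872 and 859 CPM against 133, 85.2 and 159 CPM. LC replicate 1 was much lower than the other LC tumors, but the groups did not overlap (log2 fold change -2.46, SE 0.39, edgeR adjusted p = 0.00304, and -2.78 without that tumor). By the annotation, 33.4% of the exonic bases of *Ramp2* are shared on the same strand with *Vps25*, which was counted at 0 to 3 UMIs per tumor on its own. *Emcn*, a sialomucin of capillaries and veins, was 4.71-fold lower (log2 fold change -2.24), and *Egfl7*, a protein secreted by endothelium, 3.52-fold lower (-1.82). The exons of *Egfl7* overlap those of other genes, *Agpat2* among them, by 9.41% on the same strand and 3.41% on the opposite strand. *Agpat2* had a log2 fold change of -0.46 (edgeR adjusted p = 0.186). *S1pr1*, the sphingosine 1-phosphate receptor that supports the barrier, had -1.36.

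The smallest called decreases of the surface genes were those of *Cd93*, *Mmrn2* and *Cd34*. *Cd93*, a lectin-like receptor of sprouting endothelium, was at 134, 403 and 379 CPM in the LC tumors and at 154, 139 and 160.5 CPM in the IP + LC tumors, and its matrix ligand *Mmrn2* was at 15.5, 37.6 and 44.1 CPM against 15.2, 16.3 and 23.2 CPM. In *Cd93*, LC replicate 1 was just below the IP + LC range and in *Mmrn2* inside it, and in both genes the other LC tumors were above that range. The log2 fold changes were -1.03 for *Cd93* (SE 0.36, edgeR adjusted p = 0.0647) and -0.91 for *Mmrn2* (SE 0.35, edgeR adjusted p = 0.0853), and they became -1.36 and -1.15 without LC replicate 1, with edgeR adjusted p of 1.32e-06 and 0.00122. Neither call was stable, since *Cd93* was called lower under 8 of 16 alternative settings and *Mmrn2* under 4 of 15, and with any other tumor left out the edgeR adjusted p rose as far as 0.227 and 0.267. *Cd34* was at 126, 99.5 and 113 CPM against 64.5, 55.4 and 71.9 CPM, without overlap, and was 1.75-fold lower (log2 fold change -0.81, SE 0.20, edgeR adjusted p = 0.0189). A near-identical stretch in another gene covered 2.64% of the *Cd34* transcript and 2.32% of that of *Cd93*.

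The angiopoietin axis, through which pericytes hold endothelium in a resting state, was lower at the ligand *Angpt1* and at the receptors. The ligand *Angpt2* was not called with all tumors. *Tek*, the angiopoietin receptor (chromosome 4, 94739289 to 94874976, plus strand), was at 87.8, 143 and 143 CPM in the LC tumors and at 23.2, 18.1 and 21.1 CPM in the IP + LC tumors. All IP + LC tumors were close together and far below the LC tumors, with a 6.06-fold decrease (log2 fold change -2.60, SE 0.26, edgeR adjusted p = 0.000859). *Tie1*, its partner receptor, was at 48.2, 82.3 and 80.5 CPM against 27.6, 22.8 and 27.6 CPM, with a log2 fold change of -1.47 (SE 0.25). *Ptprb*, a phosphatase that restrains TEK, was at 108, 373 and 369 CPM against 77.6, 59.5 and 87.9 CPM. Here LC replicate 1 came close to the IP + LC tumors without overlap, and the log2 fold change of -1.93 (SE 0.42, edgeR adjusted p = 0.011) was -2.30 without it. *Angpt1*, the agonist ligand, was at 41.3, 65.8 and 82.2 CPM against 18.9, 16.3 and 26.1 CPM (log2 fold change -1.67, SE 0.30, edgeR adjusted p = 0.00475), again without overlap. *Angpt2*, the context-dependent antagonist that endothelium releases on activation, was at 15.5, 29.8 and 24.6 CPM against 19.6, 15.8 and 6.54 CPM. Its groups overlapped, and the log2 fold change of -0.79 (SE 0.40, edgeR adjusted p = 0.174) did not pass the limit with all tumors and was -0.94 (edgeR adjusted p = 0.0355) without LC replicate 1. The difference between the changes of *Angpt1* and *Angpt2* was not tested. The markers of pericytes and vascular smooth muscle, the cells that wrap the vessels and supply *Angpt1*, were called lower for 10 of 13 tested genes and higher for 0, and their summed level was 844 to 1293 CPM in the LC and 257 to 339 CPM in the IP + LC tumors.

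Of the 7 transcription factors, 6 were called lower, with a median log2 fold change of -1.68 over the 7. The SOXF factors *Sox7*, *Sox17* and *Sox18*, which specify endothelium and arteries, were all lower. *Sox18* was at 46.5, 107 and 75.4 CPM in the LC tumors and at 17.4, 15.2 and 24 CPM in the IP + LC tumors, a 4.16-fold decrease (log2 fold change -2.06, SE 0.33, edgeR adjusted p = 0.00301). *Sox7* had a log2 fold change of -1.83 and *Sox17* of -1.68. None of these genes overlapped between the groups, and *Sox17* was among the 3 tested members in which LC replicate 1 was the highest LC tumor. *Erg*, an ETS factor that maintains endothelial identity, was at 53.4, 68.2 and 62.7 CPM against 18.9, 15.8 and 21.1 CPM (log2 fold change -1.74, SE 0.22, edgeR adjusted p = 0.00136). The related ETS factor *Fli1* was at 29.3, 78.3 and 81.4 CPM against 44.2, 43.8 and 47.9 CPM. The IP + LC tumors lay between LC replicate 1 and the other LC tumors, and *Fli1* was not called with all tumors (log2 fold change -0.53, SE 0.32, edgeR adjusted p = 0.26) but was without LC replicate 1 (-0.81, edgeR adjusted p = 0.000839). Pan-leukocyte genes, which mark cells that also express *Fli1*, summed to 1826 to 2497 CPM in the LC and 2031 to 2793 CPM in the IP + LC tumors, with 2 of 10 genes called lower and 2 higher, and their part in the *Fli1* level was not tested.

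*Klf2* and *Klf4* respond to the shear stress of flowing blood. *Klf2* was at 215, 364 and 332 CPM in the LC tumors and at 87, 96.3 and 134 CPM in the IP + LC tumors, which did not overlap (log2 fold change -1.53, SE 0.27, edgeR adjusted p = 0.00452). *Klf4* was at 37.9, 184 and 199 CPM against 42.8, 36.8 and 67.5 CPM. The level of LC replicate 1 was inside the IP + LC range and those of the other LC tumors far above it, so that the call rested on LC replicates 2 and 3 (log2 fold change -1.55, SE 0.51, edgeR adjusted p = 0.0492, and -1.97 without LC replicate 1). Of 4 further tested genes regulated by shear stress or these factors, 2 were called lower and 0 higher, and the prostaglandin transporter *Slco2a1* had a log2 fold change of -1.22 (edgeR adjusted p = 0.0131).

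**Figure D2:**
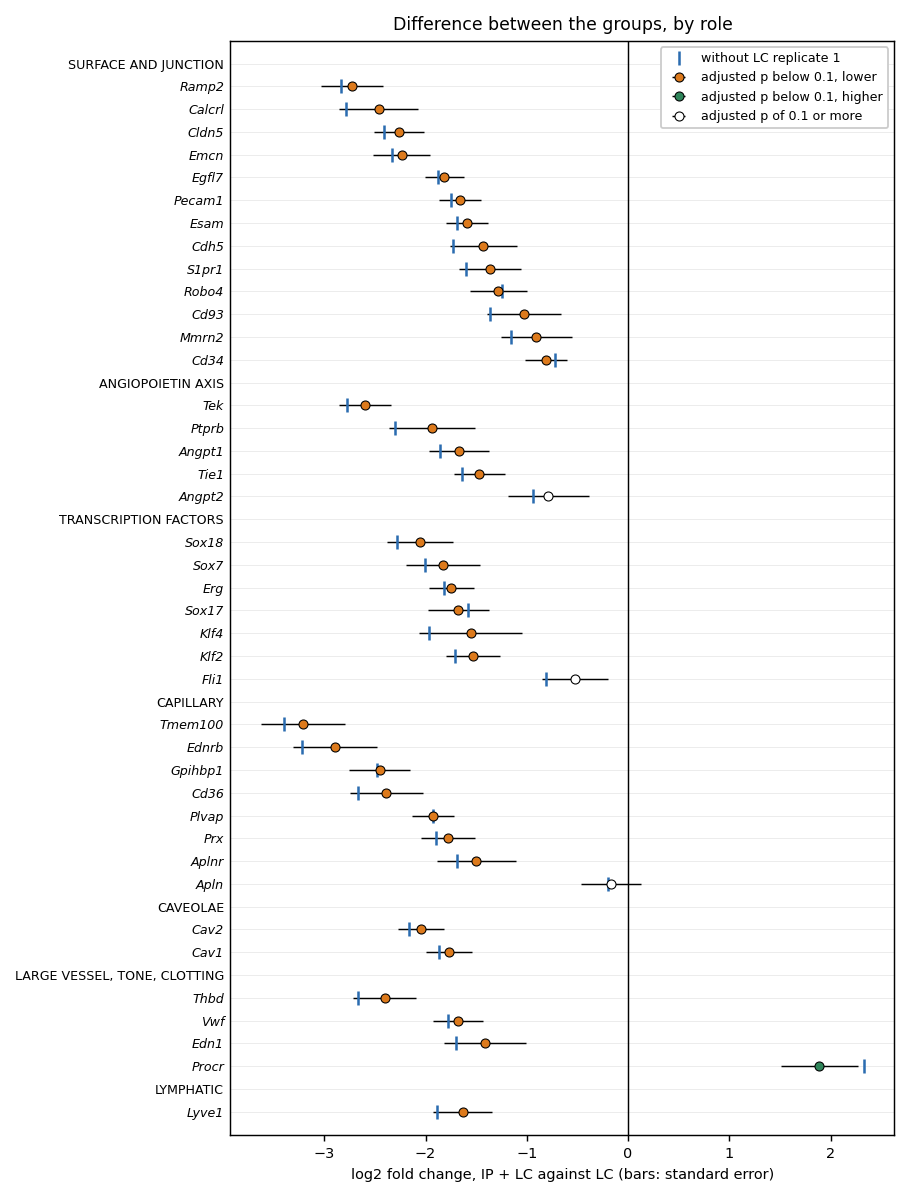
Log2 fold change of each tested endothelial gene, IP + LC against LC, with its standard error as a bar, by role, and the value without LC replicate 1 as a blue tick. Called decreases are orange, the called increase of *Procr* is green, and open circles mark *Angpt2*, *Fli1* and *Apln*, which were not called with all 6 tumors.

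The capillary genes held the 2 largest decreases of all members. Of 8 tested, 7 were called lower, with a median log2 fold change of -2.16, and their summed level was 1706 to 2860 CPM in the LC and 341 to 532 CPM in the IP + LC tumors. *Tmem100*, a membrane protein induced by BMP signals through ACVRL1 (chromosome 11, 90030348 to 90036508, plus strand), was at 420.2, 688 and 603 CPM in the LC tumors and at 92.8, 28 and 64.6 CPM in the IP + LC tumors. It had the lowest fold change of all members, 9.28-fold lower (log2 fold change -3.21, SE 0.41, edgeR adjusted p = 0.00138), and the groups lay far apart. *Ednrb*, the endothelin B receptor and a marker of aerocytes (chromosome 14, 103814625 to 103844402, minus strand), was at 49.9, 153 and 157 CPM against 19.6, 14 and 16 CPM. LC replicate 1 was well below the other LC tumors but above every IP + LC tumor, and the decrease was 7.42-fold (log2 fold change -2.89, SE 0.41, edgeR adjusted p = 0.00196, and -3.22 without that tumor). *Prx*, a scaffold protein of aerocytes, had a log2 fold change of -1.78.

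*Gpihbp1*, the anchor of lipoprotein lipase on the capillary wall, was at 260.0, 269.5 and 272 CPM in the LC tumors and at 65.3, 28 and 53.7 CPM in the IP + LC tumors. The LC tumors were nearly equal, including replicate 1, and the decrease was 5.48-fold (log2 fold change -2.45, SE 0.30, edgeR adjusted p = 0.00124). *Cd36*, a fatty acid transporter, was at 625, 1360.1 and 1388 CPM against 197, 159.9 and 288 CPM, without overlap (log2 fold change -2.39, SE 0.36, edgeR adjusted p = 0.00239, and -2.67 without LC replicate 1). *Plvap*, which forms the diaphragms of fenestrae and caveolae and is often raised in tumor vessels, was at 258, 252 and 269 CPM against 82.7, 64.2 and 58.1 CPM, a 3.8-fold decrease (log2 fold change -1.93, SE 0.21, edgeR adjusted p = 0.000909), and the LC tumors lay close together. *Cd36* is shared with macrophages, whose marker list was called lower for 1 and higher for 3 of 10 genes. The list of alveolar macrophages, which clear lipids in the normal lung, was lower for 9 of 9 tested genes, at 1762 to 2234 CPM against 257 to 502 CPM, and its part in the result for *Cd36* was not tested.

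The apelin ligand and its receptor are placed side by side. *Aplnr*, the receptor on general capillary cells, was at 15.5, 34.5 and 29.7 CPM in the LC tumors and at 13.1, 11.1 and 5.08 CPM in the IP + LC tumors, without overlap but with a narrow gap (log2 fold change -1.50, SE 0.39, edgeR adjusted p = 0.0227). *Apln*, the ligand, which aerocytes and the tip cells of growing vessels make (chromosome X, 48025146 to 48034853, minus strand), was at 18.9, 26.6 and 15.3 CPM against 15.2, 20.4 and 18.9 CPM. Its groups were intermingled and the difference was small against its error (log2 fold change -0.17, SE 0.30, edgeR adjusted p = 0.707). Across the alternatives tried, *Apln* ranged from -0.39 to 0.12 and was never called. It was the only member with overlapping groups when LC replicate 1 was left out, when 38 of 40 members lay below and 1 above, with backgrounds of 32.6% and 34.3%.

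Caveolae, the membrane pits that are dense in lung capillaries and type 1 alveolar cells, are coated by caveolins. *Cav1* was at 792, 975 and 1074 CPM in the LC tumors and at 329, 232 and 276 CPM in the IP + LC tumors, and *Cav2*, which lies 17220 bases away on chromosome 6, was at 434, 566 and 625 CPM against 152, 121 and 123 CPM. Both had wide gaps between the groups, with log2 fold changes of -1.76 (SE 0.23, edgeR adjusted p = 0.00138) and -2.04 (SE 0.23, edgeR adjusted p = 0.000918). Markers of type 1 alveolar cells, which also make caveolins, moved in the same direction. Of 10 tested, 8 were called lower and 0 higher, and they summed to 2789 to 5740 CPM against 1215 to 1751 CPM, and their part in the decrease of the caveolins was not tested.

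The genes of large vessels, tone and clotting moved in both directions. *Vwf*, the von Willebrand factor of larger vessels, was at 105, 151 and 118 CPM in the LC tumors and at 35.5, 32.1 and 50.1 CPM in the IP + LC tumors, without overlap (log2 fold change -1.68, SE 0.25, edgeR adjusted p = 0.00221). *Edn1*, the precursor of a peptide that constricts vessels, was at 17.2, 60.3 and 47.5 CPM against 18.9, 11.1 and 20.3 CPM. LC replicate 1 was inside the IP + LC range, and the log2 fold change of -1.41 (SE 0.41, edgeR adjusted p = 0.0315) was -1.70 without it. The call was lost without LC replicate 2 (-1.06, edgeR adjusted p = 0.160) and without IP + LC replicate 2 (-1.13, edgeR adjusted p = 0.150). The protein C pathway, which limits clotting on the vessel wall, had a member at each end. *Thbd*, thrombomodulin, which turns thrombin into an activator of protein C, was at 229, 499.8 and 454 CPM against 84.1, 67.1 and 73.3 CPM and was 5.29-fold lower (log2 fold change -2.40, SE 0.31, edgeR adjusted p = 0.00137, and -2.67 without LC replicate 1). *Procr*, the receptor that presents protein C to thrombomodulin (chromosome 2, 155751117 to 155755471, plus strand), was at 27.6, 12.5 and 9.32 CPM against 66, 61.3 and 37.8 CPM. All IP + LC tumors were above all LC tumors, of which replicate 1 was the highest, and *Procr* was 3.71-fold higher (log2 fold change 1.89, SE 0.38, edgeR adjusted p = 0.008, and 2.33 without LC replicate 1). *Thbd* lies 28452 bases from *Cd93* on chromosome 2.

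Of the lymphatic members, *Lyve1*, a hyaluronan receptor of lymph vessels and of some macrophages, was at 129, 258 and 275 CPM in the LC tumors and at 76.9, 69.5 and 68.3 CPM in the IP + LC tumors. The IP + LC tumors were tightly grouped below the LC tumors (log2 fold change -1.64, SE 0.29, edgeR adjusted p = 0.00466, and -1.88 without LC replicate 1). Because the UMIs of *Prox1* were few, the *Lyve1* level cannot be assigned to lymph vessels from these counts. Other lymphatic genes were mixed, with 2 of 6 tested called lower and 2 higher. *Mmrn1*, a marker of lymph vessels, had a log2 fold change of -1.41 (edgeR adjusted p = 0.014), *Pdpn* one of -0.16 (edgeR adjusted p = 0.791) and *Fgl2*, which macrophages and T cells also make, 1.72 (edgeR adjusted p = 0.00138).

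To describe whether the members changed by unequal amounts, each member's UMIs were set against those of 6 pan-endothelial genes (*Pecam1*, *Cdh5*, *Cldn5*, *Tie1*, *Esam* and *Robo4*) in the same tumor, as UMIs per 100 UMIs of the set, with the member itself left out of it. This ratio does not depend on the scaling of the libraries, and is given as a description with no test. The set itself counted 542, 1916 and 1497 UMIs in the LC and 511, 571 and 550 in the IP + LC tumors. For 24 of 40 members, the ratios of the groups overlapped, and for 18 when LC replicate 1 was left out. For 8 members every IP + LC tumor was below every LC tumor, namely *Tmem100*, *Ramp2*, *Ednrb*, *Tek*, *Gpihbp1*, *Cldn5*, *Thbd* and *Emcn*, where the share over all tested genes was 1.73%. Without LC replicate 1, *Calcrl*, *Cd36* and *Ptprb* were also below, 11 members in all, with a background of 2.39%. With *Cdh5* and *Tie1* alone as the denominator, 14 members were below, with a background of 3.15%. Because the denominator genes themselves fell, the ratios of most tested genes rose and these backgrounds are small. The counts of members below are therefore no measure of enrichment and are given as a description. For every gene outside the set, the *Cdh5* and *Tie1* denominator moved the difference between group means by the same -0.39 on the log2 scale. Its size against the full set differed between tumors, so the counts of members below and above could change. Within a tumor it rescaled every such gene alike, so it is no separate check of the genes below. *Tmem100* was at 45.0, 45.8 and 47.6 UMIs per 100 in the LC tumors and at 25.0, 8.41 and 16.2 in the IP + LC tumors. *Ramp2* was at 47.2, 41.3 and 39.4 against 27.6, 14.4 and 21.6, and *Tek* at 9.41, 9.50 and 11.3 against 6.26, 5.43 and 5.27. In these genes LC replicate 1 was close to the other LC tumors. In *Ednrb*, it was not, at 5.35 beside 10.2 and 12.4, and its value was next to the highest IP + LC ratio of 5.28. The gap was also narrow in *Emcn*, with a lowest LC ratio of 6.63 and a highest IP + LC ratio of 6.55. In *Gpihbp1* these were 17.95 and 17.61.

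The ratio was above in every IP + LC tumor for 8 members (*Tie1*, *Cdh5*, *Cd34*, *Fli1*, *Apln*, *Cd93*, *Mmrn2* and *Procr*). Because the set itself fell, this held for 83.8% of all tested genes, so the count is no result about these members, and the values are given as a description. Without LC replicate 1, *Pecam1*, *Esam* and *Robo4* were also above, 11 members in all, with a background of 88%. With *Cdh5* and *Tie1* as the denominator, 5 were above, with a background of 62.5%. *Fli1* was at 3.14, 5.22 and 6.41 UMIs per 100 in the LC tumors against 11.9, 13.1 and 12.0 in the IP + LC tumors. *Apln* was at 2.03, 1.77 and 1.20 against 4.11, 6.13 and 4.73, so that its share relative to the pan-endothelial genes was 3.02-fold higher while its CPM did not differ beyond the spread. *Cd93* was at 14.4, 26.8 and 29.9 against 41.5, 41.7 and 40.2. *Procr* was at 2.95, 0.835 and 0.735 against 17.8, 18.4 and 9.45. A ratio of this kind shows unequal change only, and *Fli1*, *Apln* and *Procr* can be expressed by cells other than endothelium.

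**Figure D3:**
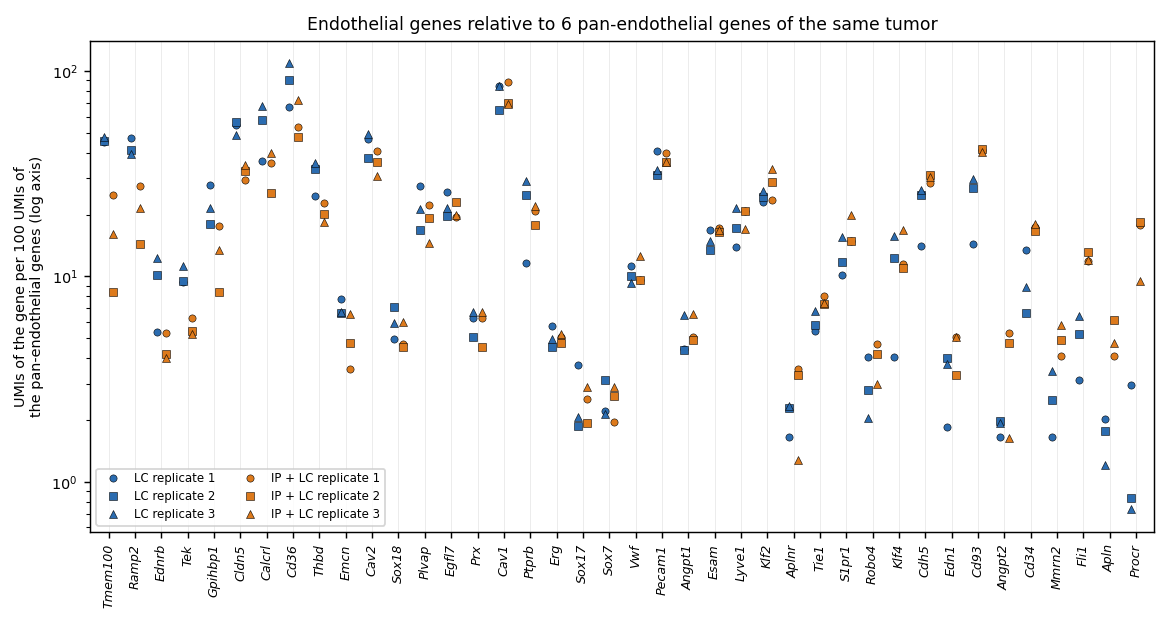
UMIs of each tested endothelial gene per 100 UMIs of the pan-endothelial set in each tumor, on a log axis, ordered by the difference between the groups, with LC in blue and IP + LC in orange. The 8 genes with all IP + LC tumors below all LC tumors stand toward the left, from *Tmem100* (45.0 to 47.6 against 8.41 to 25.0), and *Apln* and *Procr* stand at the right end.

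Of 102 further genes on lists of endothelial types, outside the members, 85 were tested, 60 were called lower and 4 higher, with a median log2 fold change of -1.22. Over all 11240 tested genes, 19.6% were called lower and 16.8% higher, which is the background for each list count above and below. The lists, like the members, were chosen with earlier results of these data known. Among other pan-endothelial genes, 30 of 38 tested were lower and 0 higher, such as *Clec14a* (log2 fold change -2.85, edgeR adjusted p = 0.000716), a lectin of the vessel wall, and the BMP receptor *Acvrl1* (-2.08, edgeR adjusted p = 0.00086). In aerocyte genes, 8 of 9 tested were lower with a median of -2.06, including the carbonic anhydrase *Car4* (-2.78), which the list of alveolar macrophage genes also holds, and *Cyp4b1* (-3.03), which airway cells also express. General capillary genes were lower for 4 of 7 tested, and *Lpl*, the lipase that GPIHBP1 binds, had a log2 fold change of -0.30 (edgeR adjusted p = 0.565). Genes of arteries and veins were lower for 10 of 13, such as the arterial ephrin *Efnb2* (-2.58) and the prostacyclin synthase *Ptgis* (-1.79), and higher for 1, the adhesion molecule *Vcam1* (0.83, edgeR adjusted p = 0.0134), which fibroblasts and macrophages can also make.

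Genes of tip cells and tumor vessels had a median log2 fold change of -0.89. Of 12 tested, 7 were lower, such as *Mcam* (-1.15, edgeR adjusted p = 0.00351), an adhesion molecule of the vessel wall, and 1 was higher, the netrin receptor *Unc5b* (1.77, edgeR adjusted p = 0.00516). The collagens of the vessel basement membrane were not called, with log2 fold changes of 0.33 for *Col4a1* (edgeR adjusted p = 0.233) and 0.17 for *Col4a2* (edgeR adjusted p = 0.529). Of 4 tested genes of activated endothelium, 1 was lower, *Icam2* (-2.08), and 1 higher, *Vcam1*, beside 19.6% lower and 16.8% higher over all tested genes. The differences between these lists were not tested.

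Genes of other normal lung cells moved with the endothelial genes. Beside the lists given above, type 2 alveolar markers were lower for 9 of 10 and summed to 36697 to 46036 CPM in the LC and 6711 to 12094 CPM in the IP + LC tumors. Airway markers were lower for 10 of 10, at 49965 to 58838 CPM against 3455 to 7365 CPM. The members summed to 6531 to 10983 CPM in the LC and 2094 to 2732 CPM in the IP + LC tumors, and the ratio of the group means was 0.265, beside 0.107 for airway, 0.230 for type 2 alveolar, 0.277 for pericyte and smooth muscle and 0.355 for type 1 alveolar markers. Fibroblast markers were lower for 9 and higher for 2 of 12. Mesothelial markers were lower for 6 of 7, cardiac muscle markers of the pulmonary veins for 8 of 8, erythroid genes for 5 of 5 and genes of platelets, which also carry von Willebrand factor, for 1 of 3. Proliferation genes, in contrast, were higher for 9 of 10, at 141 to 649 CPM in the LC tumors, of which replicate 1 was the highest, and 1210 to 1337 CPM in the IP + LC tumors. No gene on these lists was at 0 in all libraries. The part of the amount of normal lung in the samples in the result for the endothelial genes was not tested.

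**Figure D4:**
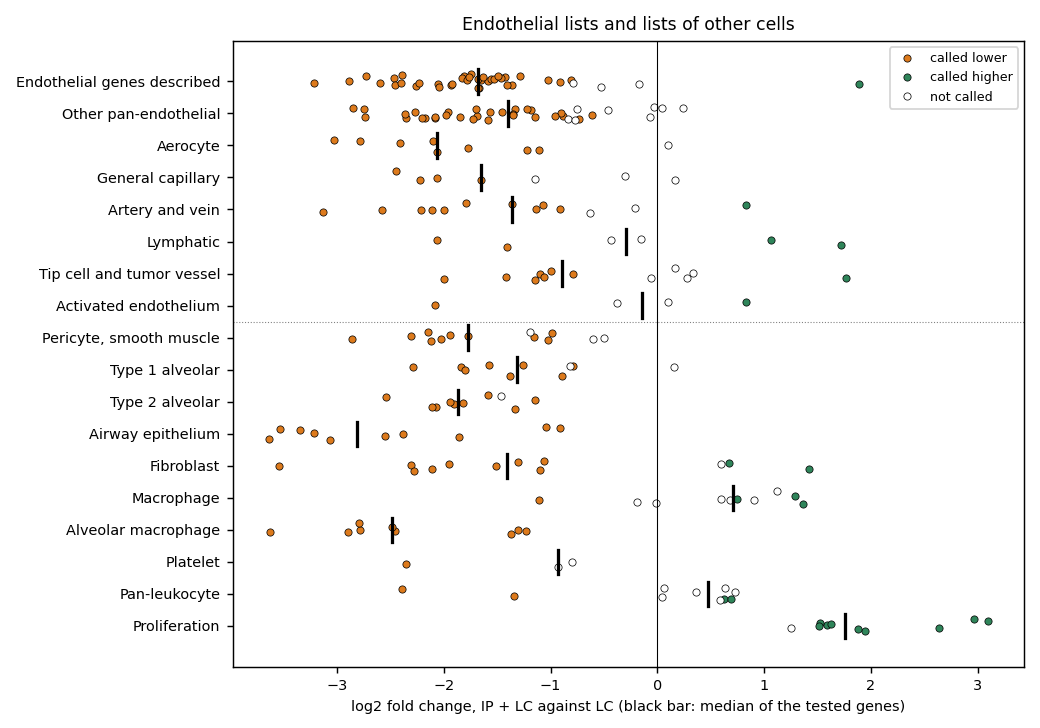
Log2 fold change, IP + LC against LC, of every tested gene on the endothelial lists (above the dotted line, members removed from the lists) and on lists of other cells (below it), with a black bar at the median of each list. The endothelial genes described have a median of -1.68 and lie with the normal lung lists on the left, while proliferation genes lie on the right, at a median of 1.75.

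The decrease of the endothelial genes held in most alternative analyses. All 16 alternatives called 30 of the 36 decreases, and *Procr* was called higher in all. The called members given above without a p (*Esam*, *Robo4*, *Emcn*, *Egfl7*, *S1pr1*, *Tie1*, *Sox7*, *Sox17* and *Prx*) had edgeR adjusted p from 0.000859 to 0.0126 with all tumors. *Klf4* lost its call by limma voom and without LC replicate 2, LC replicate 3, IP + LC replicate 1 or IP + LC replicate 2, at log2 fold changes of -1.32, -1.33, -1.27, -1.43 and -1.35. *Aplnr* lost it without LC replicate 2 (-1.27), *Edn1* without LC replicate 2 (-1.06) and without IP + LC replicate 2 (-1.13), and *Cd34* without IP + LC replicate 2 (-0.70). *Cd93* lost its call whenever any tumor other than LC replicate 1 was left out (-1.04 to -0.78), as did *Mmrn2* (-1.07 to -0.68), and both lost it by limma voom (-0.87 and -0.86) and at the limit of 0.05. *Mmrn2* also lost its call with library size only (-0.74), by DESeq2 (-0.89) and after thinning the libraries to the smallest (-0.95). When LC replicate 1 was left out, 38 members were called lower, against a background of 28.7%, and their median log2 fold change was -1.86. LC replicate 1 was the lowest LC tumor in 34 of the 40 tested members, which held for 43.8% of all tested genes. The scaling of the libraries decided the balance of calls over all genes but not the direction of the members. With library size only, the share of lower calls among all calls was 41.7% in place of 53.9% and the median of all genes was shifted by 0.158 on the log2 scale, while 39 of 40 members kept a negative value, 35 were called lower and their median was -1.52.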

How the data were processed

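RNA of tumor tissue from 3 LC and 3 IP + LC mice was sequenced by bulk RNA barcoding, with an oligo-dT primer that carries a UMI of 10 nucleotides and captures the 3′ end. Per the labels and the study's methods, the authors extracted UMIs with UMI-tools 1.1.1, trimmed with Trim Galore 0.6.7, aligned to GRCm38 with HISAT2 2.2.1 and assigned reads with featureCounts 2.0.1. The deposited files, 1 for each tumor, give raw UMI counts by gene, which the authors had not normalized. The annotation release and the strand setting are not given in the sources used here, so reads of overlapping genes on opposite strands may not be separated. The 3′ capture counts a transcript once, whatever its length. The limit of 3 UMIs covers counting error only, whereas standard errors include the spread between tumors.

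Counts were filtered with filterByExpr (minimum count 10, minimum total 15) of edgeR 4.0.16 under R 4.3.3, scaled by TMM and compared by the quasi-likelihood test with group as the only term, over all 6 libraries, with Benjamini-Hochberg adjustment over all tested genes and a limit of 0.1. CPM are given per tumor. The script was tested on simulated data before use. Replicates are separate tumors per the labels, and no libraries agreed within sampling noise. Same-numbered LC and IP + LC tumors did not deviate together (r of 0.0234, -0.111 and 0.0998), so the numbers were not taken as pairs. Positions and exon overlaps came from GENCODE M21, which matched all 31130 identifiers, near-identical stretches (at least 81 nucleotides at 95% identity) from blastn 2.17.0+, and promoters from the RefSeq table of GRCm38.p6, which holds 20 of the members.

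All members are accounted for, with values per tumor for those that carry the result of their role, and from every other list at most the 3 genes with the smallest p-value and the 2 with the highest mean CPM were named. The symbols *Glp1r*, *Gp1bb* and *Ahsp* were not matched. The members and lists were chosen with earlier results of these data known. Alternatives were DESeq2 size factors, upper quartile scaling, library size only, other filters, DESeq2 1.42.0, limma 3.58.1 voom, a replicate block, a limit of 0.05, libraries thinned to the smallest and each tumor left out.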

Additional observations from a re-analysis of the deposited data

How the results depend on the processing

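Of 636 results for single endothelial genes under alternatives, 605 kept their direction and side of the limit, 28 lost the call, 2 gained it (*Angpt2* and *Fli1*, without LC replicate 1) and 1 turned, *Apln*, which ranged from -0.39 to 0.12 with 1 tumor left out and was 0.12 without LC replicate 2. Of the endothelial genes, 33 to 36 were called lower with other scalings, filters, tests or limits, 34 of 39 tested after thinning, and 31 to 38 with 1 tumor left out. The lowest count, 31, came without replicate 2 of either group. With 1 tumor left out, 3 to 7 further endothelial genes were called higher, 7 of them without LC replicate 1. Over all genes, 4088 were called. After thinning, 2413 were called, 1359 lower and 1054 higher, with fewer genes tested. With 1 tumor left out, the calls were 2265 to 6691 in all, 1368 to 3367 lower and 897 to 3324 higher. The highest came without LC replicate 1, the lowest without IP + LC replicate 2, and the cause was not tested. With a replicate block, 34 endothelial genes were lower and 1 higher and 3410 genes were called. *Cd93* (-0.89) and *Mmrn2* (-0.81) were then not called, at edgeR adjusted p of 0.122 and 0.104, and this pairing rests on numbers alone. Of the ratios to pan-endothelial genes, 54 recomputed values moved by less than the spread and 26 by more. Depth limits *Nos3* and *Prox1*, at 0 to 9 UMIs per tumor, and 3 tumors a group allow no exact p below 0.1 for a single value.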
